A study of Mus musculus with 12 samples.

Results

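Natural killer (NK) cells sense interleukins through a small set of receptor chains, and 8 of the genes that encode them were followed across 4 genotypes: Il2ra, Il2rb, Il2rg and Il15ra for IL-2 and IL-15, Il12rb1 and Il12rb2 for IL-12, and Il18r1 and Il18rap for IL-18. The 8 genes were chosen by name and matched by mouse Ensembl gene ID, all 8 were found among the 37991 genes of the expression table, and all 8 passed the filter that left 12384 genes for testing. The material was bone marrow NK cells sorted as NK1.1+CD49b+ from C57Bl/6 mice and profiled by bulk RNA sequencing, with 3 libraries in each of 4 groups. Id2KO cells came from mice with the Ncr1Cre driver and the floxed allele Id2F/F, Tcf1KO cells from mice with Ncr1Cre and Tcf7F/F, and DKO cells from mice with Ncr1Cre and both floxed genes. Control (Ctrl) cells were floxed with no Cre named: one label gives Id2F/F alone, and the description of the series adds Id2F/FTcf7F/F. Ncr1 encodes NKp46, so this Cre acts in NK cells and in other NKp46-positive innate lymphocytes, and since no Ctrl library carries it, carrying Cre and losing a floxed gene cannot be told apart in the comparisons with Ctrl. The labels call the samples independent without saying whether each is 1 animal, so p-values measure the spread between these libraries, which may be partly technical. Ages are not given in the sources used here.

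IL-15 keeps NK cells alive and drives their growth through the beta chain Il2rb (CD122) and the common gamma chain Il2rg (CD132), while Il15ra presents the cytokine with high affinity and Il2ra (CD25) completes the high-affinity receptor for IL-2. Both beta and gamma chains signal through JAK1, JAK3 and STAT5. IL-12 binds Il12rb1, which it shares with IL-23, and Il12rb2, the chain that recruits STAT4 through JAK2 and TYK2 and drives interferon-gamma. IL-18 binds Il18r1 and then the accessory chain Il18rap, which together engage MyD88, IRAK kinases and NF-kappaB. Id2 is an inhibitor of E proteins, the helix-loop-helix factors that bind E-box DNA, and Tcf7 encodes TCF-1, a DNA-binding factor of lymphoid progenitors.

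The libraries held 13977524 to 20209587 reads as the values imply. Id2 averaged 18.0 ± 1.04 FPKM in Id2KO, 114 ± 11.6 in Tcf1KO, 42.3 ± 6.09 in DKO and 152 ± 25.0 in Ctrl (SD, n = 3 each; FPKM counts fragments per unit of gene length and of sequencing depth), so every library labelled Id2KO or DKO lay below every other. Tcf7 averaged 84.8 ± 6.33 in Id2KO, 35.0 ± 4.65 in Tcf1KO, 62.4 ± 9.94 in DKO and 40.9 ± 4.81 in Ctrl. Gene totals do not separate the floxed part of Tcf7, and the labels do not say which exons it holds, so these values do not check the labels Tcf1KO and DKO. The defining NK genes were present: summed over 10 NK markers, the level was 752 to 1285 FPKM in Id2KO, 1348 to 1610 in Tcf1KO, 1193 to 1841 in DKO and 1623 to 1769 in Ctrl. The 12 T and NKT cell markers summed to 1294 to 1752 FPKM in Id2KO, 1417 to 1902 in Tcf1KO and 1852 to 2264 in DKO, above the 978.5 to 1159 of Ctrl. These markers did not move alike. DKO had 11 of the 12 with a mean above that of Ctrl, against 10 for Tcf1KO and 9 for Id2KO. Trbc1 averaged 648 FPKM in Id2KO and 483 in DKO but 277 in Tcf1KO, beside 397 in Ctrl. Cd3e averaged 138 FPKM in Id2KO, near the 132 of Ctrl, and 375 in Tcf1KO. Zbtb16 had a lower mean in every group with Cre than in Ctrl. Neutrophil and myeloid markers summed to 62.6 to 1021 FPKM in Id2KO, 1163 to 4093 in Tcf1KO, 308 to 772 in DKO and 865 to 3527 in Ctrl. Erythroid markers summed to 166 to 1879 FPKM in Id2KO, 1320 to 3429 in Tcf1KO, 438 to 2672 in DKO and 746.5 to 4735 in Ctrl. None of these 10 markers had a higher mean in Id2KO or DKO than in Ctrl, while 7 did in Tcf1KO. Basophil and mast cell markers summed to 19.1 to 97.2 FPKM in Id2KO against 169 to 634 in Ctrl without overlap. The 6 plasmacytoid dendritic cell markers summed to 3.17 to 7.65 FPKM in DKO against a median of 21.7 in Ctrl, also without overlap. Most of that sum was 1 gene, Bst2, which averaged 4.07 FPKM in DKO against 23.2 in Ctrl. Siglech, Ccr9 and Klk1 did not pass the filter, and Ccr9 averaged 0.745 FPKM in DKO against 0.779 in Ctrl. None of the 6 had a higher mean in DKO than in Ctrl. The part of these other cell types in the results below was not tested, and in bulk RNA fewer cells of a type and less RNA per cell cannot be told apart.

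Promoters are shown for 3 genes on which the results turn, Il12rb2 and Il18rap because their levels were the most alike and Il2ra because it set the groups with Cre apart, as RefSeq gives them on GRCm38.p6, 250 bases before to 50 after the annotated start, 5′ to 3′ on the gene's own strand. Capitals mark matches to 3 motifs searched on both strands: the E-box CANNTG, bound by the proteins that Id2 inhibits; CTTTGA (or its complement TCAAAG), a core bound by TCF-1; and the palindrome TTCNNNGAA bound by STAT factors. Il12rb2 lies on the minus strand at chr6:67376139-67376438, Il18rap on the plus strand at chr1:40515112-40515411 and Il2ra on the plus strand at chr2:11642542-11642841.
Il12rb2: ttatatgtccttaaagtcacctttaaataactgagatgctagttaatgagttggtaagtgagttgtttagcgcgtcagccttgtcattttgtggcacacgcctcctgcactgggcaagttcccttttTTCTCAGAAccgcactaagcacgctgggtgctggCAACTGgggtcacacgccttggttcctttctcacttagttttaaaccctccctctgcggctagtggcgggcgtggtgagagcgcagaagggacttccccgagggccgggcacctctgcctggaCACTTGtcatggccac
Il18rap: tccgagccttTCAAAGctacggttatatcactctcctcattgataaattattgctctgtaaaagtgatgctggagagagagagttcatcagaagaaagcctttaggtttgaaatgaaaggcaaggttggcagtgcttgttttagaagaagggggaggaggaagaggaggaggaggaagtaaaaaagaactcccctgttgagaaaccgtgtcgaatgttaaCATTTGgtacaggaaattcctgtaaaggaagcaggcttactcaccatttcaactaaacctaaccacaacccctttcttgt
Il2ra: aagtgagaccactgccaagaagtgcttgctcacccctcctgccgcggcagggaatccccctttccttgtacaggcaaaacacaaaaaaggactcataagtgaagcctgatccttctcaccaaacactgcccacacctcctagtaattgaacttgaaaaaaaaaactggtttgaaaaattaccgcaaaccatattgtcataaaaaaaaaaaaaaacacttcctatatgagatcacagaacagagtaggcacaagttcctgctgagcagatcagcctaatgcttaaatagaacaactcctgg
With -1 as the last base before the start and 1 as the first base after it, Il12rb2 held a STAT motif that opens at -123 and E-boxes that open at -89 and 35. Il18rap held a TCF motif that opens at -240 and an E-box at -30, and the Il2ra window held none of the 3. The E-box occurred in 72.3% of all 32851 promoters in the table, the TCF motif in 16.0% and the STAT motif in 8.3%, and none of the matches overlapped another. In all, 6 of the 8 genes had a promoter in that table, as 9 windows; a match is a description of the letters and not a binding site.

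Il2rb was by far the most abundant of the 8 genes per unit length, with a median of 421 FPKM and a range of 319 to 561 over the 12 libraries. Il2rg followed with a median of 90.8 FPKM. The IL-18 chains stood at medians of 53.0 FPKM for Il18rap and 43.2 FPKM for Il18r1, and Il12rb2 at 33.5 FPKM. Il12rb1 was lower at a median of 4.08 FPKM, Il2ra at 3.38 FPKM and Il15ra at 1.10 FPKM. The lengths behind these values mattered for the order. The FPKM of Il15ra imply a length of 17996 bases, 4.05 times the 4446 bases its exons cover in the GENCODE M21 annotation, and for Il2rg, Il12rb2 and Il18rap the implied lengths of 4160, 5598 and 9397 bases equal the exons summed over every annotated transcript. Rescaled to the bases that exons cover, the medians were 450 for Il2rb, 158 for Il2rg, 93.7 for Il18r1, 73.7 for Il18rap, 49.5 for Il12rb2, 5.57 for Il12rb1, 4.43 for Il15ra and 3.14 for Il2ra. On this scale Il18r1 stood above Il18rap and Il15ra above Il2ra, against the deposited order, while differences between groups within a gene do not depend on the length except through the pseudocount and the filter.

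**Figure D1:**
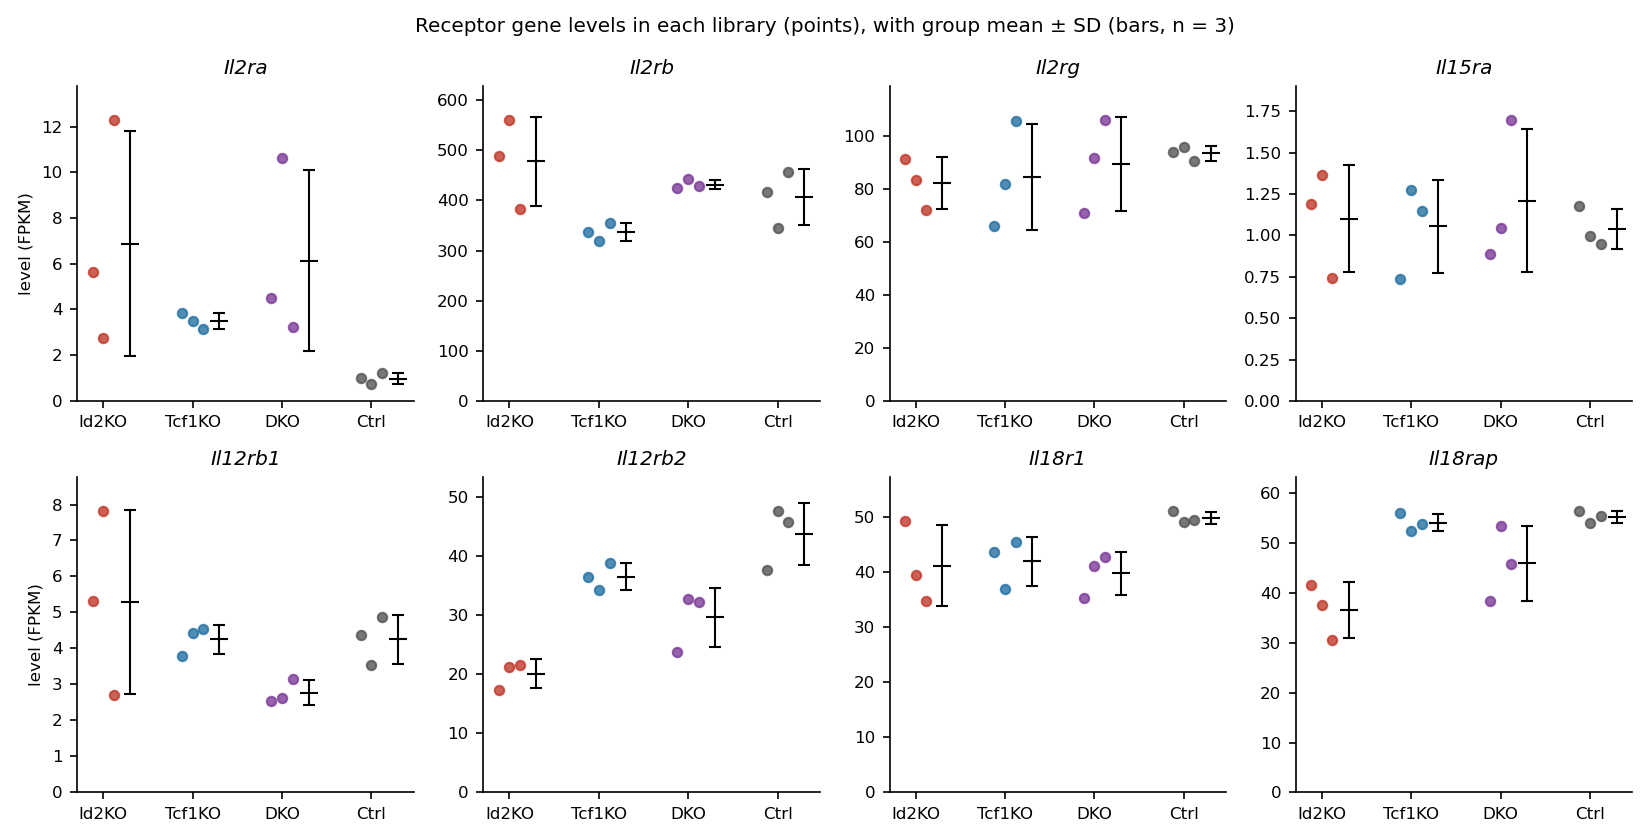
Level of each receptor gene (FPKM, linear axis from 0) in every library, by group, with the mean and SD of 3 libraries beside the points. Il12rb2 runs from 17.3 to 21.7 FPKM in Id2KO against 37.8 to 47.7 in Ctrl, and Il2ra lies above all Ctrl libraries in the 9 others.

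**Figure D2:**
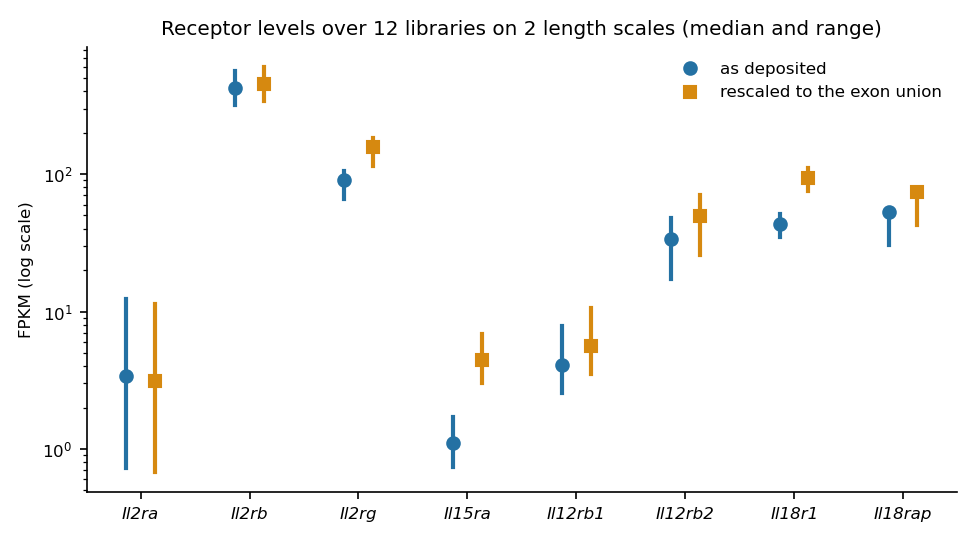
Median (symbol) and range (line) of each receptor gene over the 12 libraries on a log axis, as deposited and rescaled to the bases its exons cover in GENCODE M21. The gap between scales is widest for Il15ra, at 1.10 against 4.43 FPKM.

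The IL-12 receptor carried the difference that passed the test. Il12rb2 (ENSMUSG00000018341; chr6:67291318-67376188, minus strand, GRCm38) had 17.3, 21.3 and 21.7 FPKM in Id2KO, 36.5, 34.3 and 38.9 FPKM in Tcf1KO, 23.9, 32.9 and 32.3 FPKM in DKO, and 37.8, 47.7 and 45.9 FPKM in Ctrl. The Id2KO libraries lay below all 9 others, as for 1.19% of tested genes, the DKO libraries lay between Id2KO and both remaining groups without overlap, and Tcf1KO overlapped Ctrl. Il12rb2 fell in Id2KO against Ctrl by 1.08 ± 0.16 on the log2(FPKM + 1) scale (SE; 95% interval -1.44 to -0.73; adjusted p = 0.0274, limma with Benjamini-Hochberg adjustment over 12384 genes). It was 1 of 9 genes called lower in that comparison, 0.0727% of those tested. Averaged over Tcf7 status, with 6 Id2-targeted libraries against 6 others, it fell by 0.69 ± 0.12 (adjusted p = 0.0347 by limma), where 0.129% of genes were called lower, and the 6 libraries of each side did not overlap, as for 0.371% of genes in that direction.

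The other Il12rb2 differences did not pass. DKO differed from Ctrl by -0.55 ± 0.16 (adjusted p = 0.295), DKO from Id2KO by 0.53 ± 0.16 (adjusted p = 0.248), DKO from Tcf1KO by -0.30 ± 0.16 (adjusted p = 0.823), and Tcf1KO from Ctrl by -0.25 ± 0.16 (adjusted p = 0.999), all by limma. The direct test of whether Id2 targeting acts alike with and without Tcf7 targeting, the interaction, gave 0.78 ± 0.23 with an adjusted p of 0.807 by limma, so the Id2 effects with and without Tcf7 targeting are not shown to differ. The call against Ctrl was sensitive to the libraries used: it was lost without Id2KO 1 (adjusted p = 0.117), Id2KO 2 (0.0959), Id2KO 3 (0.0509), Tcf1KO 1 (0.0536), Tcf1KO 2 (0.0574), Tcf1KO 3 (0.0506), Ctrl 2 (0.123) or Ctrl 3 (0.0955), and in a fit to the Id2KO and Ctrl libraries alone (0.212), all by limma, while the difference stayed between -1.18 and -0.99. The averaged call held without Id2KO 3 (adjusted p = 0.0393 by limma) and was lost without each of the other 11 libraries in turn (0.0547 to 0.109), with differences of -0.74 to -0.62. Il12rb2 shares 6419 bases with Serbp1 on the opposite strand, and the strand setting of the counting is not given in the sources used here. Serbp1 ran at 82.1 to 129 FPKM and differed in Id2KO against Ctrl by 0.25 (adjusted p = 0.65 by limma). The part of this overlap in the Il12rb2 values was not tested. The 10 NK markers, of which Gzma was the largest, summed lower in Id2KO than in Ctrl, as given above, and their part in the Il12rb2 result was not tested. Id2 itself was called higher in DKO than in Id2KO, by 1.18 ± 0.16 (adjusted p = 0.0205 by limma), where 0.0807% of genes were called higher. Its interaction, 1.58 ± 0.23, did not pass (adjusted p = 0.085 by limma). Tcf7 was called higher in Id2KO than in Ctrl, by 1.04 ± 0.16 (adjusted p = 0.0279 by limma), as 0.105% of genes were. The part of these unequal Id2 and Tcf7 levels in the Il12rb2 differences was not tested.

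Il12rb1 (ENSMUSG00000000791; chr8:70808449-70821424, plus strand), the chain shared with the IL-23 receptor, did not follow its partner. It had 5.33, 7.81 and 2.70 FPKM in Id2KO, 3.79, 4.43 and 4.53 FPKM in Tcf1KO, 2.55, 2.62 and 3.16 FPKM in DKO, and 4.37, 3.53 and 4.86 FPKM in Ctrl. Id2KO spanned nearly the whole range, and the 3 DKO libraries lay below every Tcf1KO and Ctrl library. No difference passed: DKO against Id2KO was -0.65 ± 0.27 (adjusted p = 0.406), DKO against Ctrl -0.47 ± 0.27 (adjusted p = 0.642) and DKO against Tcf1KO -0.48 ± 0.27 (adjusted p = 0.826), by limma. Each of these rests on 214 to 622 reads per library. The log2 ratio of Il12rb2 to Il12rb1 averaged 2.05 ± 0.83 in Id2KO, 3.11 ± 0.16 in Tcf1KO, 3.41 ± 0.22 in DKO and 3.37 ± 0.34 in Ctrl (SD, n = 3 each), on the deposited length scale.

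The IL-18 receptor genes lie side by side on chromosome 1, both on the plus strand with 14.5 kb between them and no protein-coding gene in the gap. Il18rap (ENSMUSG00000026068; chr1:40515362-40551705), the accessory chain, had 41.7, 37.6 and 30.65 FPKM in Id2KO, 56.0, 52.4 and 53.9 FPKM in Tcf1KO, 38.5, 53.5 and 45.9 FPKM in DKO, and 56.4, 54.0 and 55.4 FPKM in Ctrl. Id2KO and DKO libraries all lay below the lowest Ctrl library, 1 DKO library only just so, and Tcf1KO was interleaved with Ctrl. The difference in Id2KO against Ctrl was -0.59 ± 0.15 (95% interval -0.92 to -0.26; adjusted p = 0.217 by limma) and did not pass. Averaged over Tcf7 status it was -0.42 ± 0.11 (adjusted p = 0.166 by limma), and Tcf1KO against Ctrl gave -0.03 ± 0.15 (95% interval -0.36 to 0.30).

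Il18r1 (ENSMUSG00000026070; chr1:40465552-40500854), the ligand-binding chain, varied less. It had 49.2, 39.4 and 34.8 FPKM in Id2KO, 43.6, 36.8 and 45.4 FPKM in Tcf1KO, 35.3, 41.1 and 42.8 FPKM in DKO, and 51.0, 49.0 and 49.5 FPKM in Ctrl. The Ctrl libraries were tightly grouped, every Tcf1KO and DKO library lay below them, and 1 Id2KO library fell within their range. None of the 3 differences from Ctrl passed: -0.29 ± 0.15 in Id2KO (adjusted p = 0.599), -0.25 ± 0.15 in Tcf1KO (adjusted p = 0.999) and -0.32 ± 0.15 in DKO (adjusted p = 0.545), by limma. The log2 ratio of Il18rap to Il18r1 ran from -0.24 to -0.07 in Id2KO, 0.25 to 0.51 in Tcf1KO, 0.10 to 0.38 in DKO and 0.14 to 0.16 in Ctrl on the deposited length scale. Rescaled to the bases that exons cover, it ran from -0.88 to -0.71 in Id2KO, -0.39 to -0.13 in Tcf1KO, -0.54 to -0.26 in DKO and -0.50 to -0.48 in Ctrl. The Id2KO ratios were the lowest on both scales, but which chain is the more abundant depends on the scale: Il18rap was below Il18r1 in all 12 libraries after rescaling.

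Il2ra (ENSMUSG00000026770; chr2:11642807-11693193, plus strand), the CD25 chain, had the widest spread of the 8 genes. It had 5.62, 2.74 and 12.3 FPKM in Id2KO, 3.83, 3.50 and 3.14 FPKM in Tcf1KO, 4.48, 10.6 and 3.25 FPKM in DKO, and 1.0, 0.728 and 1.21 FPKM in Ctrl. All 9 libraries with Cre lay above all 3 Ctrl libraries, a pattern that 80 of the 12384 tested genes shared in that direction (0.646%). The gene means were 7.02, 3.56 and 6.25 times that of Ctrl in Id2KO, Tcf1KO and DKO; 1 library set much of the larger folds, which were 4.26 without Id2KO 3 and 3.94 without DKO 2. On the log2(FPKM + 1) scale, which understates changes of such low genes, the differences were 1.81 ± 0.44 in Id2KO (95% interval 0.83 to 2.78; adjusted p = 0.197), 1.19 ± 0.44 in Tcf1KO (adjusted p = 0.949) and 1.72 ± 0.44 in DKO (adjusted p = 0.215), by limma, so none passed. These 3 comparisons share the Ctrl libraries. The gene was read 54 to 105 times in the Ctrl libraries and up to 1136 times elsewhere, so counting error is small beside the spread within Id2KO and DKO, whose SDs were 71.3% and 64.6% of their means. CD25 also marks regulatory and activated T cells. The 6 markers listed for those cells summed to 21.3 to 32.9 FPKM in Id2KO and 21.2 to 24.5 in Ctrl. They summed to 33.3 to 42.9 FPKM in Tcf1KO and 30.7 to 52.1 in DKO. These higher sums came mainly from 1 marker, Ikzf2, which averaged 29.98 FPKM in Tcf1KO and 29.41 in DKO against 12.43 in Ctrl. Tnfrsf18 went the other way, averaging 5.94 FPKM in Tcf1KO and 7.12 in DKO against 8.88 in Ctrl. Id2KO 3, the Id2KO library with the most Il2ra, also had the highest of these sums in its group, at 32.9 FPKM. In DKO the most Il2ra was in DKO 2, with a sum of 39.95 FPKM, and the highest sum, 52.1 FPKM, was in DKO 3. Foxp3 itself was at 0.172 FPKM or less in every library, and the part of T cells in the Il2ra levels was not tested.

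Il2rb (ENSMUSG00000068227; chr15:78479256-78495271, minus strand), the signalling chain for IL-15, stayed high in every group. It had 489, 561 and 383 FPKM in Id2KO, 338, 319 and 356 FPKM in Tcf1KO, 424, 442 and 429 FPKM in DKO, and 417, 345 and 457 FPKM in Ctrl. The DKO libraries lay above all Tcf1KO libraries, by 0.36 ± 0.16 on the log2 scale (adjusted p = 0.729 by limma), and the Id2-targeted libraries averaged 0.29 ± 0.11 above the others (adjusted p = 0.355 by limma). Neither passed, and the differences of Id2KO and DKO from Ctrl, 0.22 and 0.10, had 95% intervals of -0.12 to 0.57 and -0.25 to 0.44.

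Il2rg (ENSMUSG00000031304; chrX:101264378-101268255, minus strand), the gamma chain common to the receptors for IL-2, IL-4, IL-7, IL-9, IL-15 and IL-21, averaged 82.2 ± 9.67 FPKM in Id2KO, 84.5 ± 20.1 in Tcf1KO, 89.5 ± 17.7 in DKO and 93.4 ± 2.81 in Ctrl (SD, n = 3 each). Neighbouring groups in that order all overlapped. The Id2KO difference from Ctrl was -0.19 with a 95% interval of -0.62 to 0.24. Il15ra (ENSMUSG00000023206; chr2:11705290-11734317, plus strand) lies 12.1 kb downstream of Il2ra with no protein-coding gene between, and its levels did not separate the groups as those of Il2ra did. It averaged 1.10 ± 0.323 FPKM in Id2KO, 1.06 ± 0.281 in Tcf1KO, 1.21 ± 0.431 in DKO and 1.04 ± 0.123 in Ctrl, from 187 to 436 reads per library. Its differences from Ctrl were 0.03 in Id2KO (95% interval -0.46 to 0.52), 0.00 in Tcf1KO (-0.49 to 0.49) and 0.10 in DKO (-0.39 to 0.59). Neither gene reached an unadjusted p under 0.05 in any of the 8 contrasts.

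**Figure D3:**
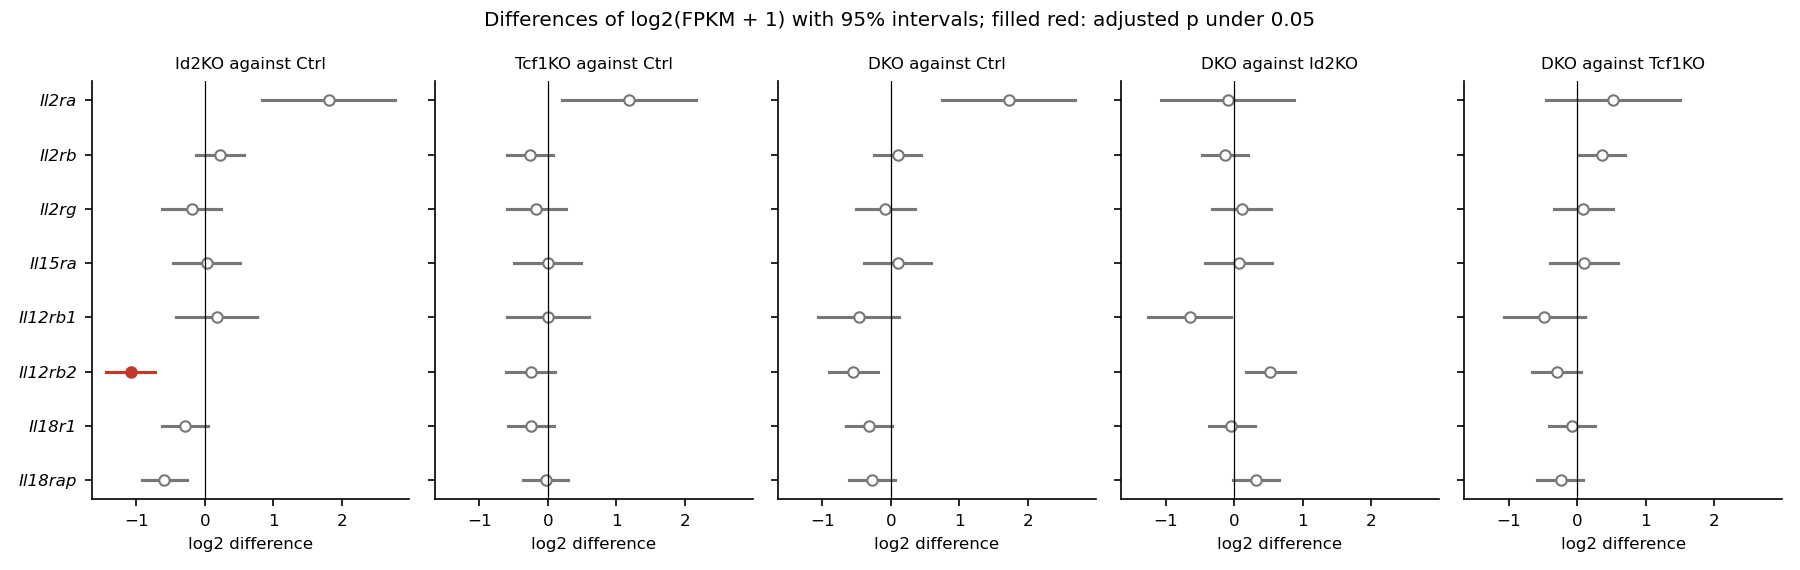
Differences of log2(FPKM + 1) for the 8 receptor genes in 5 pairwise comparisons, with 95% intervals from limma; filled red symbols have an adjusted p under 0.05. Il12rb2 in Id2KO against Ctrl, at -1.08, is the only filled symbol, and the Il2ra intervals against Ctrl lie above 0 without passing after adjustment.

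No contrast called more than 1 of the 8 receptor genes. In Id2KO against Ctrl 1 of the 8 was called, with 22 of 12384 genes called in all (0.178%), and the median difference of the 8 was -0.08 beside -0.008 over all genes. By limma, 3 of the 8 had an unadjusted p under 0.05 there, as 9.71% of genes did. In DKO against Ctrl none of the 8 was called by limma while 18 genes were (0.145%); 2 of the 8 had an unadjusted p under 0.05, as 9.44% of genes did, and 5 of the 8 did not overlap with Ctrl: Il2ra above it, as for 6.28% of genes, and Il12rb1, Il12rb2, Il18r1 and Il18rap below it, as for 7.27% of genes. In Id2KO, Il2ra lay above all Ctrl libraries (7.11% of genes did) and Il12rb2 and Il18rap below them (6.75%). In Tcf1KO, Il2ra lay above (4.96%) and Il18r1 below (5.73%). Tcf1KO against Ctrl had 0 of the 8 genes called by limma and 0 genes overall (0%), with 594 genes (4.8%) at an unadjusted p under 0.05, Il2ra among them, and 2 genes called by voom on reads recovered from the values. With array weights 7 genes were called there, none of them among the 8. DKO against Id2KO called 15 genes (0.121%) and DKO against Tcf1KO 7 (0.0565%), none of them among the 8; Il12rb2 was above every Id2KO library in DKO (6.34% of genes), and against Tcf1KO the DKO libraries were above for Il2rb (5.74%) and below for Il12rb1 and Il12rb2 (6.9%). The interaction called 0 genes by limma (0%), with 735 (5.94%) at an unadjusted p under 0.05, Il12rb2 among them, and 0 called by voom. Averaged over Tcf7 status, 37 genes were called for Id2 (0.299%), 1 of them among the 8. There 4 of the 8 had an unadjusted p under 0.05 by limma, as 10.9% of genes did. Averaged over Id2 status, 46 genes were called for Tcf7 (0.371%), none among the 8. There 0 of the 8 had an unadjusted p under 0.05 by limma, beside 9.74% of genes. With 3 libraries a group, an exact two-sided permutation test of a single gene cannot go below 0.10.

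Among themselves the 8 genes did not move as a block. Over the 28 pairs, Pearson's r of log2(FPKM + 1) across the 12 libraries ran from -0.64 to 0.84 with a median of 0.13, a description of libraries that share group and depth. Il12rb2 and Il18rap were the closest pair, at 0.84, followed by Il2rg and Il15ra at 0.69 and the neighbours Il18r1 and Il18rap at 0.64. Il2ra ran against Il18r1, at -0.64, and Il12rb2, at -0.63. Of all other tested genes, those most like Il12rb2 over the 12 libraries were Id2 (r = 0.92), Itgam (0.91), which encodes the CD11b integrin chain of mature mouse NK cells, and S1pr5 (0.90), the sphingosine phosphate receptor that NK cells use to leave the marrow. Id2 is itself a targeted gene, so its level follows the genotypes. Its r therefore carries the group difference already given for Il12rb2 and is no separate result. Itgam had 1.14, 1.65 and 1.004 FPKM in Id2KO, 10.7, 7.39 and 6.65 FPKM in Tcf1KO, 4.29, 4.93 and 4.14 FPKM in DKO, and 9.69, 8.77 and 8.76 FPKM in Ctrl. Its DKO libraries lay between Id2KO and the rest, the order seen for Il12rb2. Il18rap was most like Klrc1 (0.92), which encodes the receptor NKG2A, Ndst1 (0.92) and Klra9 (0.89), a Ly49 receptor gene; Klra9 spanned 5.57 to 13.5 FPKM in Id2KO, 21.0 to 22.7 in Tcf1KO, 15.8 to 24.1 in DKO and 29.2 to 44.2 in Ctrl. Il18r1 was most like Itga2 (0.88), the CD49b integrin chain used in the sort. The closest genes to Il2ra were Zfp759 (0.89), Adat2 (0.84) and N4bp2 (0.82), and to Il2rb Iars2 (0.91), Polr2h (0.89) and Mamdc2 (0.87), genes whose highest levels were 1.94 to 12.8 FPKM.

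**Figure D4:**
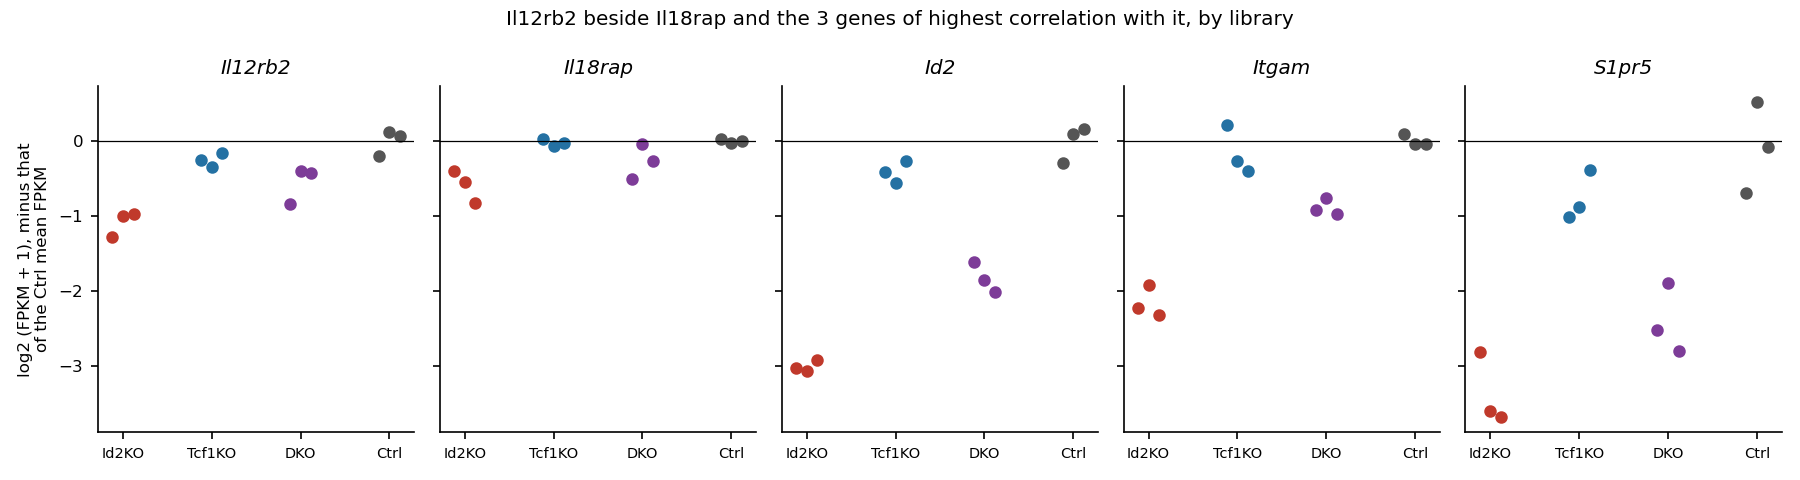
Log2(FPKM + 1) of each library minus that of the Ctrl mean, for Il12rb2, Il18rap and the 3 genes whose levels correlated best with Il12rb2, by group. Il12rb2, Id2 and Itgam share the order Id2KO lowest, then DKO, with correlations to Il12rb2 of 0.92 for Id2 and 0.91 for Itgam. Id2 is itself a targeted gene, so its order follows the genotypes.

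Downstream of the receptors, none of the 18 tested IL-2 and IL-15 signalling genes, the 6 IL-12 signalling genes or the 16 of 17 IL-18 signalling genes that passed the filter was called by limma in any of the 8 contrasts. Over all genes 0% to 0.371% were called per contrast, so no call among so few genes is near that share. Median differences in Id2KO against Ctrl were -0.07, 0.08 and -0.09 for the 3 lists, beside -0.008 over all genes. Socs2 and Cish, feedback inhibitors of STAT5 signalling, were among the members of smallest p in Id2KO against Ctrl, and neither passed. Socs2 averaged 3.24 ± 1.49 FPKM in Id2KO, 0.924 ± 0.276 in Tcf1KO, 0.924 ± 0.0576 in DKO and 0.966 ± 0.524 in Ctrl (SD, n = 3 each), and Cish averaged 0.583 ± 0.255 FPKM in Id2KO, 1.81 ± 0.303 in Tcf1KO, 2.67 ± 1.20 in DKO and 1.37 ± 0.283 in Ctrl. The Id2KO libraries lay above the 9 others for Socs2, as for 1.98% of tested genes, and below them for Cish, as for 1.19%. The differences in Id2KO against Ctrl were 1.09 ± 0.28 for Socs2 (adjusted p = 0.216) and -0.59 ± 0.27 for Cish (adjusted p = 0.517), beside 0.57 ± 0.33 for Socs1 (adjusted p = 0.63), and Cish differed by 1.17 ± 0.27 in DKO against Id2KO (adjusted p = 0.154), by limma. Jak2, the kinase on Il12rb2, averaged 12.2 ± 2.21 FPKM in Id2KO, 16.9 ± 2.1 in Tcf1KO, 21.0 ± 0.315 in DKO and 15.8 ± 1.16 in Ctrl, with DKO above Id2KO by 0.75 ± 0.15 (adjusted p = 0.121 by limma). Stat4, which IL-12 activates, stood at 81.3 ± 15.6 FPKM in Id2KO, 58.0 ± 4.38 in Tcf1KO, 68.0 ± 12.9 in DKO and 67.7 ± 7.20 in Ctrl, and was not called in any contrast.

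Of 8 genes for ligands and their partners, 5 passed the filter and none was called by limma in any contrast, which is near the 0% to 0.371% called over all genes. Il12b was listed at 0 in all 12 libraries. Il15 averaged 0.601 ± 0.799 FPKM in Id2KO, 1.70 ± 1.25 in Tcf1KO, 0.803 ± 0.251 in DKO and 1.93 ± 0.659 in Ctrl, and its difference in Id2KO against Ctrl was -0.96 ± 0.41 (adjusted p = 0.472 by limma). Il18bp, the soluble decoy for IL-18, averaged 10.8 ± 2.71 FPKM in Id2KO, 16.1 ± 1.38 in Tcf1KO, 15.2 ± 5.30 in DKO and 10.9 ± 4.85 in Ctrl.

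Of 30 other interleukin and interferon receptor genes, 20 passed the filter, and 1 was called in 1 contrast. Il4ra, the IL-4 receptor chain that pairs with Il2rg, had 21.1, 17.0 and 29.6 FPKM in Id2KO, 10.9, 12.5 and 11.54 FPKM in Tcf1KO, 15.5, 19.0 and 22.5 FPKM in DKO, and 6.94, 8.16 and 11.9 FPKM in Ctrl. All 6 Id2-targeted libraries lay above the 6 others, as for 0.525% of genes. Averaged over Tcf7 status Il4ra was higher by 0.94 ± 0.17 (adjusted p = 0.0492 by limma; 0.17% of genes were called higher), a call that held without Id2KO 3 (0.0488) or Ctrl 3 (0.0414) and was lost without each of the other 10 libraries in turn (0.0579 to 0.14). It was also lost with a pseudocount of 0.1 (0.0547) or 0.5 (0.0503), with no filter (0.106) and with quantile normalization (0.0576). The pairwise differences from Ctrl, 1.24 ± 0.23 in Id2KO (adjusted p = 0.0914) and 1.02 ± 0.23 in DKO (adjusted p = 0.147), did not pass by limma. Il21r, the IL-21 receptor chain, is the next protein-coding gene on chromosome 7, 23954 bases away. It averaged 16.9 ± 3.64 FPKM in Id2KO, 13.5 ± 4.03 in Tcf1KO, 18.0 ± 2.71 in DKO and 6.33 ± 2.44 in Ctrl. All 9 libraries with Cre lay above Ctrl, as for 0.646% of genes. The differences of 1.33, 1.0 and 1.41 had adjusted p-values of 0.123, 0.568 and 0.0976 by limma. Il17ra lay below Ctrl in all 3 groups with Cre, as for 0.694% of genes. Its differences were -0.37, -0.41 and -0.49 in Id2KO, Tcf1KO and DKO (adjusted p = 0.354, 0.741 and 0.224 by limma). Il7r, the IL-7 receptor chain, averaged 16.6 ± 6.06 FPKM in Id2KO, 13.2 ± 3.74 in Tcf1KO, 25.7 ± 4.73 in DKO and 25.9 ± 11.7 in Ctrl.

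**Figure D5:**
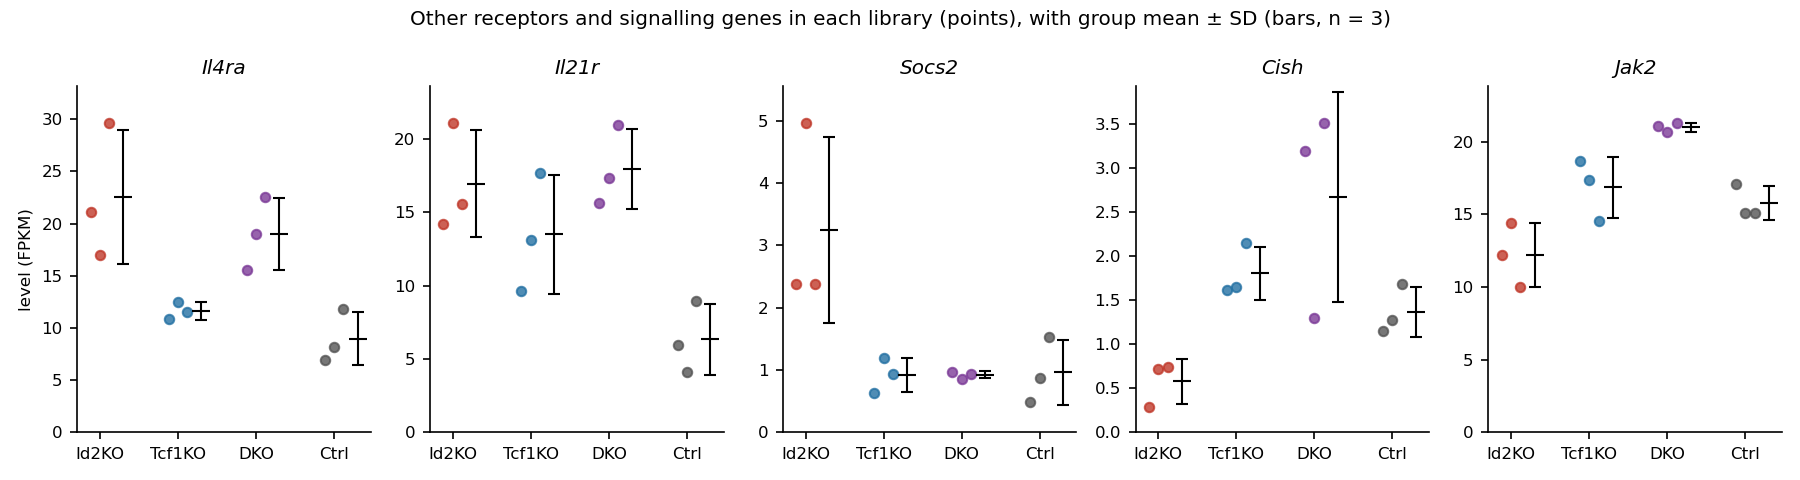
Levels (FPKM, linear axis from 0) of the receptor genes Il4ra and Il21r, the feedback inhibitors Socs2 and Cish and the kinase Jak2 in every library, by group, with mean and SD of 3. Il4ra averages 22.6 FPKM in Id2KO, 11.6 in Tcf1KO, 19.0 in DKO and 8.99 in Ctrl. Socs2 averages 3.24 FPKM in Id2KO against 0.966 in Ctrl and Cish 0.583 against 1.37, differences that did not pass.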

How the data were processed

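Bulk RNA sequencing values of 12 libraries, 3 in each of 4 groups taken from the labels, were used as the authors deposited them, in FPKM. Per the submitters' processing notes, the build was mm10 and the tools were TopHat2 2.1.0, Trimmomatic 0.33, edgeR (no version given) and HTSeq 0.6.1; the annotation and the strand setting are not given in the sources used here. The values were whole multiples of what 1 read is worth for all 23707 genes above 0 (within 0.001 reads, widened to at most 0.050), which gave reads per gene and library sizes of 13977524 to 20209587; only the voom alternative tested these reads. Symbols, positions and exon lengths came from GENCODE M21 on GRCm38, which matched 32919 of 37991 IDs and may not be the annotation the authors used.

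The 12384 genes that reached 1 FPKM in 3 libraries were tested as log2(FPKM + 1) with limma 3.58.1 in R 4.3.3 (1 fit to all libraries with group as the term, eBayes with a trend, two-sided, Benjamini-Hochberg over all tested genes of each contrast, threshold 0.05). The fit was tested on simulated data. The 8 contrasts were the 5 pairwise ones named in the text, the interaction (DKO minus Tcf1KO minus Id2KO plus Ctrl), and the effect of targeting each gene averaged over the status of the other. Alternatives varied the pseudocount, filter, scaling, weights, replicate block, libraries and method. Named genes were the 8 receptor genes, Id2, Tcf7, every called member of each pathway list or otherwise up to 3 tested members of smallest p per contrast (a subset of which is printed), and the 3 genes most correlated with each receptor gene (predicted genes passed over). Il12b, Serbp1, Ifng, the markers named singly beside the cell type sums (Foxp3 among them), the ratios between chains and the promoters and motifs shown were picked after values were seen. The receptor genes and lists were chosen with earlier results of these data known. Figures and tables used Python 3.11.15 with matplotlib 3.10.9, numpy 2.4.6 and pandas 2.3.3.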

Additional observations from a re-analysis of the deposited data

How the results depend on the processing

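The count of receptor genes called in Id2KO against Ctrl, 1, became 0 with only the groups compared and without the 3 libraries of lowest array weight (Id2KO 3, DKO 3 and Ctrl 2; an alternative chosen after seeing the data), and ranged from 0 to 1 when 1 library was left out. For Id2 averaged over Tcf7 status the count of 1 became 0 with no filter (adjusted p of Il12rb2 0.0675 by limma) and without those 3 libraries, and again ranged from 0 to 1 when 1 library was left out. In the fit to Id2KO and Ctrl alone and without those 3 libraries, the adjusted p of Il12rb2 in Id2KO against Ctrl was 0.212 and 0.141. The cause was not tested, though these settings use fewer libraries or test more genes. The other 6 contrasts kept a count of 0 in every setting. Of 1151 values of 51 gene differences under the alternatives, 1071 kept their direction and side of the threshold, 58 lost a call, 22 gained one, and none changed sign. Most of the 51 were not called in the main fit, so keeping that side says little about the calls. All 58 losses fell on called differences. For Il12rb2, 10 of 23 values lost the call in Id2KO against Ctrl and 13 of 22 in the Id2 average. Losses were 15 of 22 for Il4ra and 7 of 22 for Gzmb in the Id2 average, and 13 of 22 for Eomes in the Tcf7 average. The counts of genes called overall moved more: in DKO against Ctrl, 18 became 4 with no filter, 13 with voom, 12 with array weights, 1 with only the groups compared, 0 without the 3 libraries of lowest array weight, and 1 to 27 when 1 library was left out. For Id2 averaged, 37 became 13 with no filter, 71 with voom, 85 with array weights, 6 without those 3 libraries and 13 to 79 when 1 library was left out. For Tcf7 averaged, 46 became 20 with no filter, 28 with the replicate block, 89 with array weights and 5 to 69 when 1 library was left out. In Id2KO against Ctrl, 22 became 33 with voom or array weights, 2 with only the groups compared and 8 without those 3 libraries. In Tcf1KO against Ctrl, 0 became 2 with voom, 7 with array weights, 4 without those 3 libraries and 0 to 3 when 1 library was left out. In DKO against Id2KO, 15 became 8 at the filter of 5 FPKM, 0 with only the groups compared and 2 to 31 when 1 library was left out, and in DKO against Tcf1KO the 7 ranged from 0 to 7. Without those 3 libraries the Il4ra and Gzmb calls were lost too (adjusted p = 0.19 and 0.0756 by limma). Same-numbered libraries deviated together with r of -0.14 to 0.27 (median 0.03, above 0.1 in 6 of 18 pairs). Libraries of different numbers gave -0.23 to 0.17 (median 0, above 0.1 in 2 of 36 pairs). The labels tie no number to a shared day or animal, so the main fit did not pair the samples, and the replicate block was run as an alternative. These values do not exclude a factor shared by some same-numbered libraries. The libraries numbered 3 of Tcf1KO, DKO and Ctrl did go together (0.20 to 0.27), and Ifng was highest in number 3 of every group, at 137.4 FPKM in Id2KO, 188 in Tcf1KO, 307 in DKO and 248 in Ctrl. With the replicate block the difference of Il12rb2 in Id2KO against Ctrl stayed at -1.08 (adjusted p = 0.0238 by limma), 1 receptor gene stayed called there, and the genes called in DKO against Tcf1KO numbered 15 instead of 7. Eomes, averaged over Id2 status, lost its call with the block (adjusted p = 0.0875 by limma). Scaling moved the median of all genes by less than 0.1 on the log2 scale.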

Other observations

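Genes that these interleukins act on in NK cells gave 2 calls among the 22 tested over the 8 contrasts, 1 in the average for Id2 (0.129% of all genes were called lower there) and 1 in the average for Tcf7 (0.202%). Gzmb, the granzyme B gene that IL-15 and IL-12 raise, had 21.4, 35.5 and 23.5 FPKM in Id2KO, 104.0, 157 and 163 FPKM in Tcf1KO, 67.2, 81.2 and 29.7 FPKM in DKO, and 147.5, 108 and 97.2 FPKM in Ctrl. Every Id2-targeted library lay below the 6 others, as for 0.371% of genes. Gzmb fell by 1.72 ± 0.25 on the log2 scale with Id2 targeting averaged over Tcf7 status (adjusted p = 0.0231 by limma), a call lost without Id2KO 1 (0.0611), Tcf1KO 2 (0.0741), Tcf1KO 3 (0.0677), Ctrl 1 (0.0547) or Ctrl 2 (0.0545), and with no filter (0.0675). Perforin, Prf1, averaged 24.1 ± 1.57 FPKM in Id2KO, 49.9 ± 7.63 in Tcf1KO, 37.7 ± 18.1 in DKO and 71.3 ± 6.90 in Ctrl (SD, n = 3 each), with a difference of -1.52 ± 0.26 in Id2KO against Ctrl (adjusted p = 0.0603 by limma).

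Eomes, the T-box factor that sustains Il2rb in mouse NK cells, averaged 39.8 ± 8.81 FPKM in Id2KO, 26.7 ± 1.70 in Tcf1KO, 25.7 ± 1.39 in DKO and 47.3 ± 6.33 in Ctrl. It fell by 0.69 ± 0.12 with Tcf7 targeting averaged over Id2 status (adjusted p = 0.0454 by limma), a call that held without Id2KO 3 (0.00972) and was lost without each of the other 11 libraries in turn (0.0791 to 0.143) and with no filter (0.0779). Il2rb, in the same average, differed by -0.19 ± 0.11 (adjusted p = 0.631 by limma). Ccl4 averaged 70.3 ± 15.3 FPKM in Id2KO, 132 ± 31.5 in Tcf1KO, 202 ± 57.3 in DKO and 145.5 ± 31.8 in Ctrl, with a difference of 1.49 ± 0.26 in DKO against Id2KO (adjusted p = 0.0786 by limma).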
